A study of Mus musculus with 8 samples.

Results

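The 10 genes described here encode the core pluripotency transcription factors Pou5f1 (OCT4), Sox2 and Nanog and the naive factors Klf2, Klf4, Klf5, Esrrb, Tfcp2l1, Zfp42 (REX1) and Prdm14. They were chosen by symbol from the 24354 genes of the deposited expression table, and all 10 were listed and tested. RNA sequencing covered 8 mouse libraries, 2 in each of 4 groups. The study asked whether fusion with extended pluripotent stem cells transfers their state to somatic cells.

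The embryonic stem cells (ESCs) were the wild-type E14 line, grown with serum and LIF on inactivated C3H mouse embryonic fibroblasts. The neural stem cells (NSCs) carried OG2+/-/ROSA26+/- and were grown on gelatin with N2, EGF and FGF2. OG2 is a GFP transgene driven by the distal enhancer of Oct4, and ROSA26 is a ubiquitously expressed lacZ gene. The extended pluripotent stem cells (EPSCs) were wild-type line 1, derived from C57BL/6 8-cell embryos, at passage 15. They were grown on C3H feeders in LCDM medium, named for its additives human LIF, the GSK3 inhibitor CHIR99021, dimethindene maleate (DiM) and minocycline hydrochloride (MiH). The hybrid cells were line 2-2 at passage 10, made by PEG fusion of EPSCs with these NSCs, and were near-tetraploid and kept in LCDM on the same kind of feeder. Hybrid colonies were picked for Oct4-GFP, so the activity of the Pou5f1 enhancer in that transgene was part of how these cells were obtained. Both libraries of a group came from a single line, so every p-value here measures the spread between repeated libraries of 1 line, not between derivations or fusions.

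OCT4 and SOX2 bind DNA side by side at enhancers of pluripotency genes, including their own and that of Nanog, and NANOG stabilises the resulting loop. The naive factors extend this loop: LIF acts through STAT3 on Klf4 and Tfcp2l1, inhibition of GSK3 relieves repression of Esrrb, and PRDM14 restrains FGF signalling and DNA methylation. Klf2, Klf4 and Klf5 encode zinc finger proteins with overlapping targets. Zfp42 is a classic marker of naive cells that is lost early on exit from this state. SOX2 is the exception in its range, since neural stem cells also use it.

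FPKM counts fragments relative to transcript length and to a total set for each library, so levels of different genes can be compared. The effective library depths, read from the steps between FPKM values, ran from 22 to 32.55 in units of 1000000 fragments. They include any scaling between libraries, which is not given, and need not equal the mapped fragments. A 2 kb transcript with 3 fragments would then show 0.05117 FPKM in the deepest library and 0.07572 FPKM in the shallowest, which allows for counting error only. The 12 neural stem cell markers summed to between 3778 and 3836 FPKM in NSCs and to between 11.4 and 19.8 FPKM in the other groups. Summed fibroblast markers, 10 genes, ranged from 7.44 to 8.93 FPKM in NSCs. Their sum ranged from 12.4 to 13.7 FPKM in ESCs, stood at 83.6 or 86.6 FPKM in EPSCs, and reached 247 or 331 FPKM in hybrid cells. Lum was listed at 0 in 1 ESC library, and none was at 0 in EPSCs or hybrid cells. One of these, Postn, is also among the genes the study used to tell EPSCs from ESCs. In such bulk libraries, fewer cells of a type and less RNA per cell cannot be told apart.

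The promoters of Nanog and Zfp42 are shown because the first carries adjoining SOX and OCT letters and the second belongs to the gene that differed most among the pluripotent groups. RefSeq promoter windows (GRCm38.p6, 250 bases before and 50 after the start) were found for 8 of the 10 genes, 11 windows in all. Klf5 and Prdm14 had no window. The 250 bases before the start are printed 5′ to 3′ on the strand of the gene, chr6:122707239-122707488 on the plus strand for Nanog and chr8:43307010-43307259 on the minus strand for Zfp42. Capitals mark the SOX-OCT composite and a KLF motif in Nanog, and the octamer and a KLF motif in Zfp42.
Nanog: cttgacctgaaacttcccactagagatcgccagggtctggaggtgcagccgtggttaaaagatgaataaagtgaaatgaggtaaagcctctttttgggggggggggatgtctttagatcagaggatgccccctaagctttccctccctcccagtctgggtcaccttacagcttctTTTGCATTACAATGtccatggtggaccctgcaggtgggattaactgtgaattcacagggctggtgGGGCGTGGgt
Zfp42: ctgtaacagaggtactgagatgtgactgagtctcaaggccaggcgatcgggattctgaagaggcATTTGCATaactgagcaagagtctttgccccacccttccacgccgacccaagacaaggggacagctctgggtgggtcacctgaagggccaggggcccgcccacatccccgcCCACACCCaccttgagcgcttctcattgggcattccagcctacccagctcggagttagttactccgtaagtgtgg

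Motifs were searched as plain letters on both strands of the 300-base windows. The SOX-OCT composite (CATTGT, 1 free base, then ATGCAAA) lay 75 to 62 bases before the Nanog start on the opposite strand, and it contains the SOX match (CATTGT) there. It was found in 2 of 32851 windows (0.00609%), both of them windows of Nanog at neighbouring starts. The octamer ATGCAAAT lay 186 to 179 bases before the Zfp42 start on the opposite strand, and 1.74% of all windows hold it. The KLF letters GGGNGTGG lay 10 to 3 bases before the start of Nanog and 75 to 68 bases before that of Zfp42, against 17.6% of all windows with a match. The Nanog window held a second KLF match at bases 25 to 32 counted from the start, beyond the printed stretch. Windows of Pou5f1 and Tfcp2l1 also held KLF letters, 1 match and 2 matches, and Tfcp2l1 held TATAAA (13.6% of windows). In 1 Esrrb window there was a SOX match (12.6% of windows) and the palindromic STAT letters TTCNNNGAA (8.30% of windows), and a second Pou5f1 window held a SOX match. The windows of Sox2, Klf2 and Klf4 held none of the letters searched, and no window of these genes held the ESRRB letters TCAAGGTCA (0.423% of windows) or the TFCP2L1 motif (3.44%). A match describes letters in this window and no more.

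In NSCs, Sox2 was the only one of the 10 genes above 3 FPKM, and all 10 were higher in the hybrid cells (44.5% of all 13239 tested genes were), although Sox2 turned to -0.14 with scaling to a common sum and -0.051 under quantile normalization. A gene was tested only with a mean of at least 1 FPKM in a group. For the 8 genes at or under 1 FPKM in NSCs, the direction was thus largely fixed in advance. Compared with their EPSC parent, hybrid cells had more Zfp42 and Prdm14 and less Klf4, and the other 7 genes did not pass the test (22.5% of tested genes were higher and 21.9% lower). Between EPSCs and ESCs 8 of the 10 differed, Klf4, Klf5, Esrrb and Tfcp2l1 being higher in EPSCs and Zfp42, Prdm14, Klf2 and Sox2 lower (33.7% of tested genes were higher and 27.3% lower). Differences below are on the log2(FPKM + 1) scale, which understates the change of low genes, and adjusted p-values are from limma with Benjamini-Hochberg adjustment over 13239 genes.

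**Figure D1:**
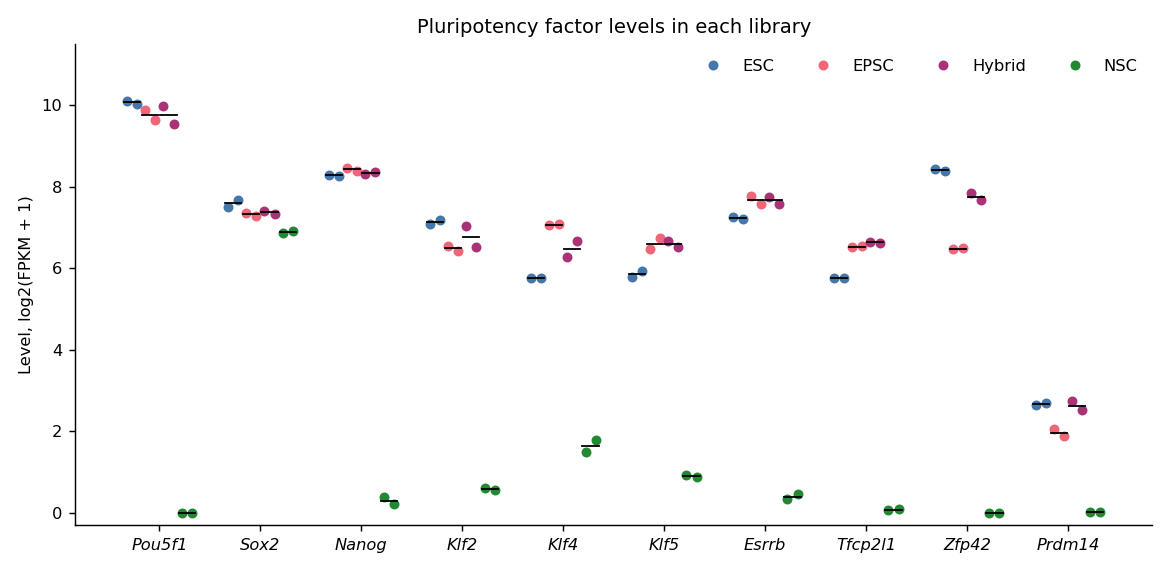
Level of each gene in each of the 8 libraries, as log2(FPKM + 1) on the vertical axis, with points for libraries, colours for groups and a black bar at the mean of the 2 libraries. NSC points sit near 0 for every gene except Sox2 (and low for Klf4), and Zfp42 has the widest separation among ESCs, EPSCs and hybrid cells.

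Pou5f1, the POU factor without which the pluripotent state is lost, lies at chr17:35506018-35510772 on the plus strand (GENCODE M21, GRCm38). It measured 1106 and 1048 FPKM in ESCs, 949 and 790 in EPSCs, 1009 and 742 in hybrid cells, and was listed at 0 in both NSC libraries. The hybrid libraries lay on both sides of the EPSC libraries, and ESCs were above both groups in each library. It was the highest of the 10 genes in ESCs, EPSCs and hybrid cells, and 99.2% to 99.3% of the tested genes had a lower mean. Hybrid cells differed from EPSCs by 0.00 ± 0.14 (SE, 95% interval -0.34 to 0.33, adjusted p = 0.998). Against ESCs the difference was -0.32 in hybrid cells (adjusted p = 0.0888) and -0.31 in EPSCs (adjusted p = 0.0940), so neither passed the limma test. Both passed with scaling to a common sum (adjusted p = 0.0299 and 0.0350) and with quantile normalization (0.0217 and 0.0317). With a block on replicate number limma also called both (adjusted p = 0.0314 and 0.0343). Leaving out 1 hybrid library also made a call: hybrid cells against ESCs gave -0.54 without hybrid replicate 1 (adjusted p = 0.00563) but -0.094 without hybrid replicate 2 (adjusted p = 0.476), and EPSCs against ESCs gave adjusted p = 0.0198 and 0.0188 without either hybrid library. The EPSC difference ranged from -0.45 without EPSC replicate 1 to -0.18 without EPSC replicate 2 (adjusted p = 0.385), and neither passed. Gm19553 overlaps this gene on the opposite strand. The library kit was stranded, but whether strand was used in counting is not given in the sources used here.

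Sox2, the HMG-box partner of OCT4, lies at chr3:34650405-34652461 on the plus strand, inside Sox2ot on the same strand. Its level was 181 and 204 FPKM in ESCs, 162 and 155 in EPSCs, 167 and 161 in hybrid cells, and 116 and 120 in NSCs. ESC libraries were the highest and NSC libraries the lowest, and EPSC and hybrid libraries overlapped. Hybrid cells differed from EPSCs by 0.05 (95% interval -0.11 to 0.21, adjusted p = 0.582). Sox2 was lower than in ESCs, with differences of -0.27 in EPSCs (adjusted p = 0.00941) and -0.22 in hybrid cells (adjusted p = 0.0201). These calls rested on single libraries: without ESC replicate 2 the differences were -0.19 in EPSCs (adjusted p = 0.0685) and -0.14 in hybrid cells (adjusted p = 0.142), and without hybrid replicate 2 that of hybrid cells was -0.20 (adjusted p = 0.0794). Fitting ESC and hybrid libraries alone left -0.22 with an adjusted p of 0.0554.

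Against NSCs, Sox2 was higher by 0.47 in hybrid cells (adjusted p = 0.000274), 0.42 in EPSCs (adjusted p = 0.000528) and 0.70 in ESCs (adjusted p = 2.82e-05). The direction of the first 2 depended on scaling. The summed FPKM of NSC libraries was 415240 and 415412, against 600674 to 653796 in the other libraries. After scaling to a common sum, the difference was -0.14 in hybrid cells (adjusted p = 0.0849), -0.19 in EPSCs (adjusted p = 0.0348) and 0.15 in ESCs (adjusted p = 0.0789), and under quantile normalization it was -0.051 in hybrid cells and -0.12 in EPSCs. Scaling to a common sum shifted the median difference over tested genes as well, to -0.51 for hybrid cells, -0.48 for EPSCs and -0.47 for ESCs, where it had been 0.06, 0.08 and 0.03. Relative to that median, Sox2 stood 0.42 above it in hybrid cells before scaling and 0.36 after, but -0.12 under quantile normalization. Sox2ot measured 7.94 and 9.26 FPKM in NSCs and at most 1.40 FPKM in the other libraries, and how reads were split between the overlapping genes is not given in the sources used here.

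Nanog, the homeodomain factor that stabilises self-renewal, lies at chr6:122707489-122714633 on the plus strand. It reached 310 and 307 FPKM in ESCs, 352 and 334 in EPSCs, 315 and 327 in hybrid cells, and 0.296 and 0.155 in NSCs. The 3 pluripotent groups lay close together, in the order EPSCs, hybrid cells, ESCs, without overlap. No difference among them passed the limma test, with -0.10 for hybrid cells against EPSCs (95% interval -0.25 to 0.06, adjusted p = 0.274), 0.05 for hybrid cells against ESCs (adjusted p = 0.492) and 0.15 for EPSCs against ESCs (adjusted p = 0.0824). The last passed when either NSC library was left out of the fit (adjusted p = 0.0435 and 0.0440) and turned to -0.07 under quantile normalization. Nanog has near-identical processed pseudogenes, so its reads may be shared with them.

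Klf2 lies at chr8:72319033-72321656 on the plus strand, and is the member of the KLF trio most tied to MEK inhibition and ground-state culture. Its level was 134 and 144 FPKM in ESCs, 92.7 and 84.6 in EPSCs, 129 and 91.0 in hybrid cells, and 0.520 and 0.474 in NSCs. One hybrid library was near the ESC level and the other within the EPSC range. Klf2 was lower in EPSCs than in ESCs, at -0.64 (95% interval -0.98 to -0.30, adjusted p = 0.00683). Hybrid cells differed from EPSCs by 0.29 (adjusted p = 0.148) and from ESCs by -0.35 (adjusted p = 0.0657). Without hybrid replicate 2 the difference from EPSCs was 0.54 (adjusted p = 0.00356), and without hybrid replicate 1 that from ESCs was -0.60 (adjusted p = 0.00101). With the other hybrid library left out instead, these were 0.039 (adjusted p = 0.732) and -0.10 (adjusted p = 0.290). The difference from ESCs also passed with scaling to a common sum (adjusted p = 0.0309), quantile normalization (0.00942) and a block on replicate number (0.0472).

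Klf4, a reprogramming factor and target of LIF-STAT3 signalling, lies at chr4:55527143-55532466 on the minus strand. It measured 52.9 and 53.1 FPKM in ESCs, 132 and 135 in EPSCs, 76.3 and 99.7 in hybrid cells, and 1.80 and 2.41 in NSCs. Hybrid libraries lay between ESCs and EPSCs, and no 2 groups overlapped. EPSCs were 1.31 above ESCs (95% interval 1.00 to 1.63, adjusted p = 0.000162). Klf4 was lower in hybrid cells than in EPSCs, at -0.60 (95% interval -0.92 to -0.29, adjusted p = 0.00981, 0.00313 to 0.0490 over the alternatives), and higher than in ESCs by 0.71 (adjusted p = 0.00250).

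Klf5, which in the embryo supports the inner cell mass and trophectoderm, lies at chr14:99298691-99315036 on the plus strand. The values were 54.06 and 59.99 FPKM in ESCs, 87.4 and 106 in EPSCs, 100 and 90.7 in hybrid cells, and 0.895 and 0.845 in NSCs. EPSC and hybrid libraries overlapped and lay above those of ESCs. Hybrid cells differed from EPSCs by -0.01 (95% interval -0.25 to 0.23, adjusted p = 0.943). EPSCs were 0.74 above ESCs (adjusted p = 0.000621) and hybrid cells 0.73 above them (adjusted p = 0.000535).

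The KLF trio was also compared by shares. Of the summed Klf2, Klf4 and Klf5 level, Klf2 made up 55.8% ± 0.223 (SD, n = 2) among ESC libraries, 27.9% ± 2.59 in EPSCs and 37.3% ± 6.998 in hybrid cells. Klf4 made up 21.3% ± 0.883, 41.9% ± 0.591 and 30.2% ± 7.39, and Klf5 22.9% ± 0.659, 30.3% ± 3.18 and 32.5% ± 0.392 in the same order. The hybrid libraries differed from each other, with Klf4 at 24.99% in one and 35.4% in the other, and the difference from EPSCs rests on these unequal libraries. Klf2 shares of EPSCs and ESCs did not overlap, nor did those of Klf4. Exact two-sided permutation tests of 2 libraries against 2 cannot go below p = 0.333, which is what both of these differences gave. In NSCs the summed level was 3.21 and 3.73 FPKM, and Klf4 held 60.3% ± 6.13 of it.

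**Figure D2:**
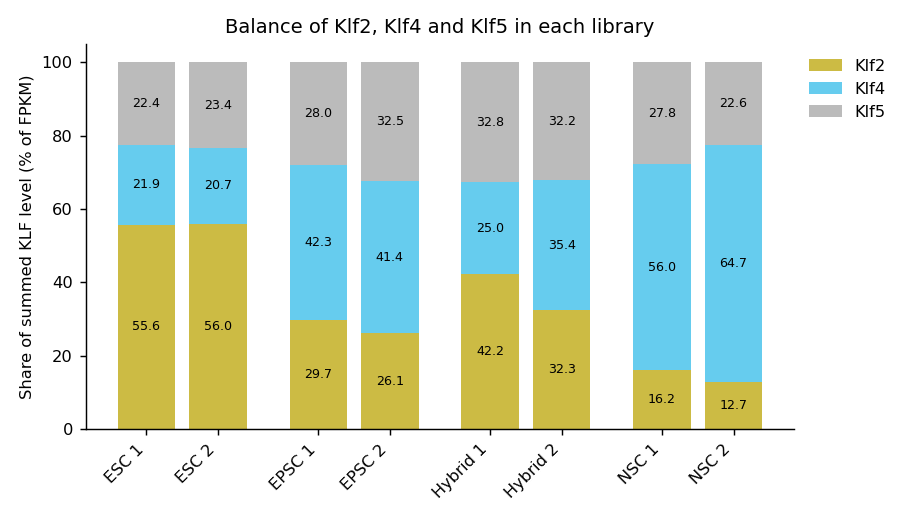
Percent of the summed FPKM of Klf2, Klf4 and Klf5 taken by each gene, 1 stacked bar per library, with the percent written in each segment. Klf2 takes the largest share in both ESC libraries and Klf4 in both EPSC libraries, while the hybrid libraries differ from each other.

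Esrrb, an orphan nuclear receptor that can stand in for Nanog, lies at chr12:86361117-86521628 on the plus strand. It measured 152 and 147 FPKM in ESCs, 217 and 190 in EPSCs, 213 and 191 in hybrid cells, and 0.254 and 0.364 in NSCs. EPSC and hybrid libraries overlapped and both were above ESCs. Hybrid cells and EPSCs differed by -0.01 (95% interval -0.21 to 0.19, adjusted p = 0.926). Esrrb was higher than in ESCs by 0.44 in EPSCs (adjusted p = 0.00319) and by 0.43 in hybrid cells (adjusted p = 0.00318).

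Tfcp2l1, a grainyhead-family factor downstream of LIF, lies at chr1:118627945-118685168 on the plus strand. Its level was 53.0 and 52.7 FPKM in ESCs, 90.7 and 91.7 in EPSCs, 98.9 and 97.3 in hybrid cells, and 0.0503 and 0.0571 in NSCs. Libraries of a group agreed closely and the 4 groups did not overlap. Both NSC values lie below the floor of 3 fragments on a 2 kb transcript, 0.05865 and 0.05814 FPKM there. The transcript length of Tfcp2l1 itself was not used, and a longer transcript has a lower floor. Hybrid cells exceeded EPSCs by 0.10 (95% interval -0.01 to 0.22), which did not pass the limma test (adjusted p = 0.129). Tfcp2l1 was higher than in ESCs by 0.78 in EPSCs (adjusted p = 2.33e-05) and by 0.88 in hybrid cells (adjusted p = 9.46e-06).

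Zfp42, a zinc finger gene whose product marks naive cells, lies at chr8:43295063-43306980 on the minus strand, with the promoter printed above. It measured 346 and 335 FPKM in ESCs, 87.4 and 88.4 in EPSCs, 228 and 201 in hybrid cells, and was listed at 0 in both NSC libraries. The 3 pluripotent groups did not overlap, with EPSCs lowest and ESCs highest. Zfp42 was lower in EPSCs than in ESCs, at -1.94 (95% interval -2.09 to -1.79, adjusted p = 1.91e-06), a 3.87-fold difference in mean FPKM. In hybrid cells it was higher than in EPSCs by 1.28 (95% interval 1.12 to 1.43, adjusted p = 7.42e-05), a 2.44-fold difference, and lower than in ESCs, at -0.66 (adjusted p = 0.000106). The order of Zfp42 among the 10 genes moved with this, from place 2 in ESCs to place 9 in EPSCs and place 3 in hybrid cells. A pseudogene, Zfp42-ps1, may share reads with it.

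Prdm14, a PR-domain protein that restrains FGF signalling, lies at chr1:13113457-13127163 on the minus strand and was the lowest of the 10 genes in each pluripotent group. Its level was 5.22 and 5.40 FPKM in ESCs, 3.18 and 2.66 in EPSCs, 5.71 and 4.71 in hybrid cells, and 0.0146 and 0.0145 in NSCs. The NSC values lie below the floor of 3 fragments on a 2 kb transcript, 0.0586 and 0.0581 FPKM there, and the transcript length of Prdm14 itself was not used. EPSCs were lower than both other pluripotent groups, which overlapped. Prdm14 was lower in EPSCs than in ESCs, at -0.69 (adjusted p = 0.00109) and higher in hybrid cells than in EPSCs by 0.66 (95% interval 0.41 to 0.91, adjusted p = 0.00273, 0.00248 to 0.0451 over the alternatives). Hybrid cells and ESCs differed by -0.03 (95% interval -0.28 to 0.22, adjusted p = 0.828).

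Taking the comparisons in turn, hybrid cells against EPSCs had 3 of the 10 genes called by limma, 2 higher (22.5% of all 13239 tested genes) and 1 lower (21.9%). The fold rule asks for a mean over 3 FPKM on the higher side and more than a 3-fold ratio of means, and 0 of 10 genes met it in either direction (1.59% of tested genes). In hybrid cells against ESCs 4 were higher (35.3% of tested genes) and 2 lower (30.2%), and 0 passed the fold rule (6.68%). EPSCs against ESCs had 4 higher (33.7%) and 4 lower (27.3%), and by the fold rule Zfp42 alone was lower (2.36%). Median differences of the 10 genes were 0.02, 0.01 and -0.06, beside 0.00, 0.04 and 0.04 over all tested genes. These comparisons share libraries, and each is given as its own values.

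**Figure D3:**
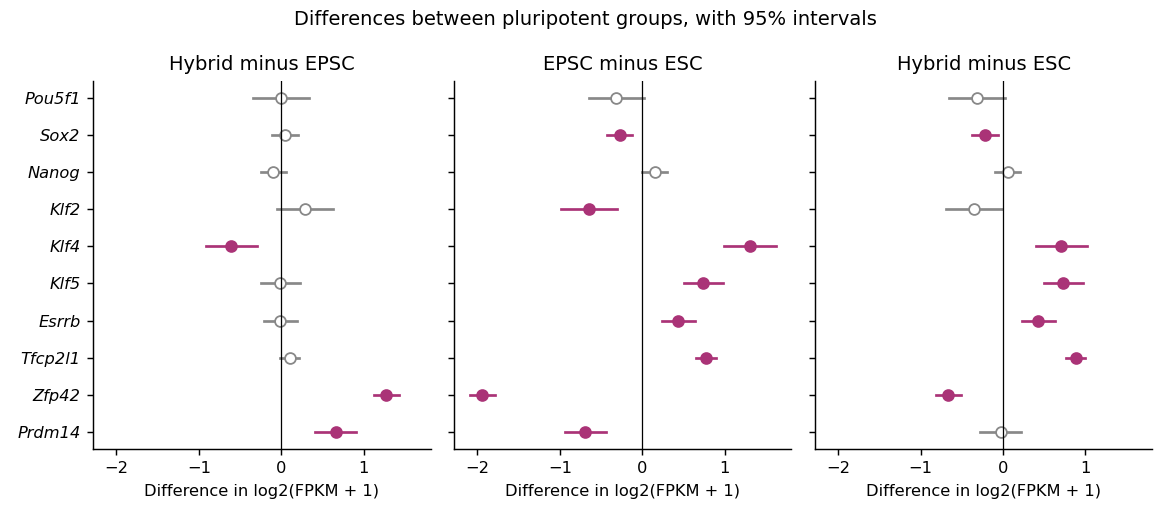
Differences in log2(FPKM + 1) on the horizontal axis for hybrid cells minus EPSCs, EPSCs minus ESCs and hybrid cells minus ESCs, with limma 95% intervals. Filled points have an adjusted p under 0.05, open points do not, and Zfp42 has the largest difference in the first 2 panels, 1.28 and -1.94.

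Against NSCs, all 10 genes were higher in hybrid cells, in EPSCs and in ESCs (44.5%, 45.2% and 42.8% of tested genes were higher in these comparisons). In NSCs 8 of the 10 had a mean at or under 1 FPKM. These passed the filter for testing only through the other groups, where they are high. Their direction against NSCs was thus largely fixed in advance. For Sox2 the direction turned under both scalings, to -0.14 and -0.051 in hybrid cells and to -0.19 and -0.12 in EPSCs. By the fold rule 9, 8 and 9 were higher (12.7%, 12.3% and 11.7% of tested genes). Sox2 stayed under a ratio of 3, and Prdm14 in EPSCs had a mean under 3 FPKM. The medians were 6.37, 6.18 and 6.11, beside 0.06, 0.08 and 0.03 over all tested genes. For Pou5f1 and Zfp42 no fold was given, since NSCs were listed at 0. Among the rest of the genes, Nanog in hybrid cells was 8.04 above NSCs (95% interval 7.88 to 8.19, adjusted p = 4.01e-10) and Klf4, the gene second to Sox2 in NSCs, was 4.84 above (adjusted p = 3.29e-08).

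A position was set for each gene, with 0 at the NSC mean and 1 at the EPSC mean on the log2 scale. The hybrid median over the 10 genes was 1.01, with individual genes between 0.889 for Klf4 and 1.34 for Prdm14. This scale is set mostly by the low NSC levels. The median difference from NSCs was 6.18 in EPSCs and 6.11 in ESCs. A median position near 1 therefore cannot tell an EPSC level from an ESC level. Zfp42 stood at 1.20. Sox2 stood at 1.12, but at 0.769 with scaling to a common sum and 0.439 under quantile normalization, where it was the lowest of the 10, since its EPSC minus NSC difference turned. Pou5f1 stood at 1.00, in cells picked for Oct4-GFP, and the part of that selection in its level was not tested.

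Other pathway genes were examined from lists set by role. Their counts stand beside 22.5% higher and 21.9% lower over all tested genes in hybrid cells against EPSCs, and 33.7% higher and 27.3% lower in EPSCs against ESCs. Of 18 other network regulators, 7 were higher and 2 lower in hybrid cells than in EPSCs, including Foxd3 (0.79, adjusted p = 0.00847), Myc (0.58, adjusted p = 0.0177) and Tbx3 (0.52, adjusted p = 0.00285) by limma, and 9 of 18 did not pass. When only the EPSC and hybrid libraries were fitted, 1 of the 18 passed, beside 2811 calls over all genes in that fit (5881 in the main fit). In EPSCs against ESCs 3 were higher and 9 lower, with Myc at -1.63, Foxd3 at -1.50 and Rif1 at 0.97. Of 11 genes known as OCT4-SOX2 targets, 1 was higher and 5 lower in hybrid cells than in EPSCs. Among these, Lefty1, a Nodal antagonist, was at -1.36 (adjusted p = 0.000662, limma) and Fgf4, the differentiation-priming ligand, at -1.01 (adjusted p = 0.00129), while Pou5f1 and Sox2 themselves did not pass. Against ESCs the EPSCs had 2 targets higher and 5 lower, with Lefty1 at -2.26, Tcl1 at -1.59 and Dppa3 at 1.24.

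Of 8 negative regulators, such as the OCT4 repressor Nr6a1, 1 was higher (Nr6a1, 0.38, adjusted p = 0.0407) and 1 lower (Mbd3, -0.26, adjusted p = 0.00336, limma) in hybrid cells than in EPSCs. The count was 1 without either ESC library, without EPSC replicate 2 or with no filter. Between EPSCs and ESCs 2 were higher and 4 lower, with Otx2 at -2.07, Pou3f1 at -1.83 and Nr6a1 at 1.26. Of 21 relatives of the 10 genes in the same families, 19 were tested, and 3 were higher and 5 lower in hybrid cells than in EPSCs. The KLF relatives Klf10 (-0.90), Klf13 (-0.81) and Klf3 (-0.77) were lower, and Klf15 was higher (0.75, adjusted p = 0.00984, limma), named after its value was seen. When only the EPSC and hybrid libraries were fitted, 5 relatives passed, beside 2811 calls over all genes in that fit (5881 in the main fit). In EPSCs against ESCs 4 relatives were higher and 9 lower, with Klf15 at -2.79, and 8 passed in all without ESC replicate 2.

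Counts of cell type markers also stand beside the shares over all tested genes in the main fit. In hybrid cells against EPSCs 22.5% were higher and 21.9% lower, and in EPSCs against ESCs 33.7% and 27.3%. The 10 fibroblast markers were all higher in hybrid cells than in EPSCs (median 1.61, Col1a1 at 1.79 and Dcn at 1.78), and 9 of 10 were higher in EPSCs than in ESCs (median 2.43). Fibroblasts were feeders in the ESC, EPSC and hybrid cultures. These markers differed in the same comparisons as Zfp42, Prdm14 and Klf4, and their part in the differences of those genes was not tested. Of the 12 neural stem cell markers 3 were lower in hybrid cells than in EPSCs (Slc1a3 at -0.85, Nes at -0.68 and Olig2 at -0.54), while with a constant of 0.1 the test called 5, of which 1 was higher. Of 5 primitive endoderm markers 3 were tested, with 2 lower in hybrid cells than in EPSCs (Sox7 at -0.87 and Gata4 at -0.64), or 4 called without the filter on low values. Of 5 trophectoderm markers 3 were tested, with 1 lower (Krt7 at -1.36), or 3 called without hybrid replicate 2. In EPSCs against ESCs, 2 neural stem cell markers were higher (Olig2 at 2.73 and Slc1a3 at 0.57) and 2 lower, with Pax6 at -1.34. There 1 primitive endoderm marker was higher (Sox7 at 0.48) and 1 lower (Gata4 at -0.56), and 1 trophectoderm marker was higher (Krt7 at 2.18). The primitive endoderm count was 1 without either ESC library, NSC replicate 1 or EPSC replicate 1, and the trophectoderm count was 2 without EPSC replicate 1 or hybrid replicate 1 and 3 without hybrid replicate 2. With only the EPSC and ESC libraries fitted, 1 primitive endoderm marker passed, and a block on replicate number called 3 trophectoderm markers. The part of these markers in the differences of the 10 genes was not tested.

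**Figure D4:**
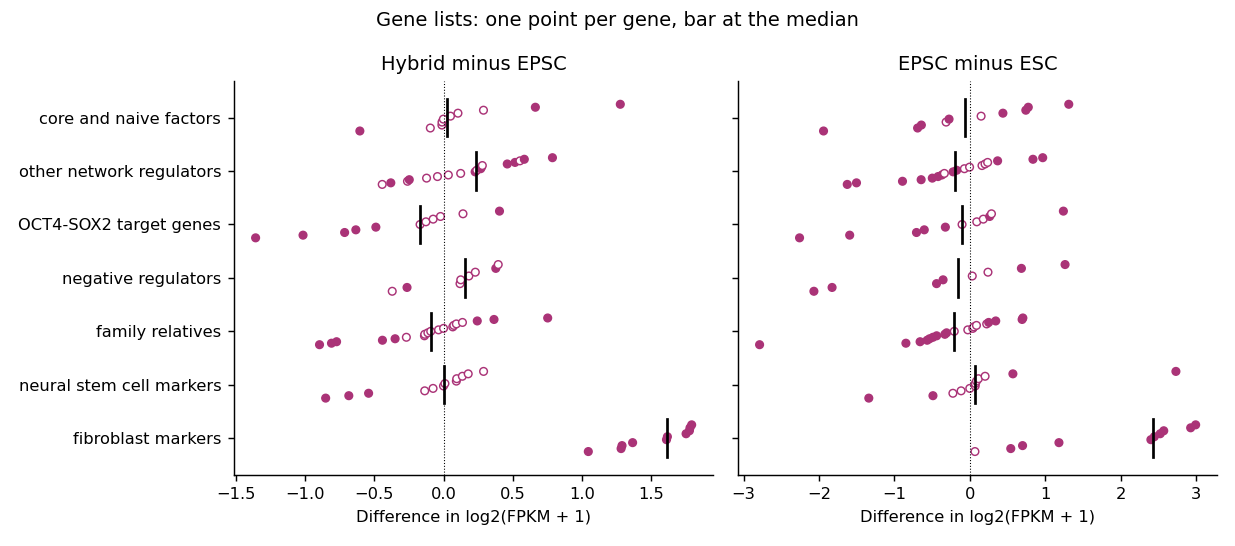
Differences in log2(FPKM + 1) for the 10 genes and for 6 lists, with 1 point per gene, filled where the adjusted p is under 0.05, and a black bar at the median of each list. Fibroblast markers have the highest median in both panels, 1.61 and 2.43, while the 10 genes spread to both sides of 0.

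The genes whose level over the 8 libraries followed that of each of the 10 most closely were found by Pearson r on the log2 scale. Pou5f1 was followed by Camsap3, 2410003L11Rik and Pdlim1, and Nanog by Rps4l, Isyna1 and Dppa5a. For the KLF genes the nearest were Trim28, Nr0b1 and Mybl2 (Klf2), 2610305D13Rik, Eif4a2 and Dbf4 (Klf4), and Tfcp2l1, Acer2 and Slc35f2 (Klf5). Esrrb had Bex1 and Ildr1 among its nearest, and Tfcp2l1 had Msh6, Bcat1 and Anxa7. Zfp42 was nearest to Eef1g, Clcn2 and Rps21, and Prdm14 to Itpk1, Pla1a and Grhpr. Itpk1 shared the low EPSC level of Prdm14, with means of 59.6 FPKM in ESCs, 34.1 in EPSCs, 54.3 in hybrid cells and 6.16 in NSCs. Between 54 and 353 genes exceeded r = 0.99 for 9 of the genes, and 0 did for Sox2, whose nearest were Oser1 (r = 0.989), Chuk (0.987) and Pcbp2 (0.983). These values are descriptions over 8 libraries that share the low NSC level, with no test.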

How the data were processed

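Poly-A RNA libraries were made with a stranded kit and sequenced as paired reads. According to the submitters' processing notes, skewer 0.2.2, STAR 2.7.9a, mm10 and Cufflinks with Cuffnorm 2.2.1 were used, and the authors deposited FPKM per gene and library. The gene annotation, the strand setting and the Cuffnorm normalization are not given in the sources used here. No column of other samples was present. From the deposited FPKM, log2(FPKM + 1) was fitted with limma 3.58.1 (R 4.3.3, trend) over all 4 groups, for 13239 genes with a mean of at least 1 FPKM in a group, with Benjamini-Hochberg adjustment and a threshold of 0.05. Python 3.11.15 was used with numpy 2.4.6, pandas 2.3.3 and scipy 1.17.1. Effective depth was derived from the steps of FPKM values on 2247 genes, with an assumed fragment length of 200 nucleotides. The limma fit and the depth derivation were tested on simulated data. Named genes were all 10 members, the 3 genes nearest to each by correlation, and of each list up to 3 with the largest called difference between hybrid cells and EPSCs and between EPSCs and ESCs. An item that this rule names is not reported here. The genes and lists were chosen with earlier results of these data known. Alternatives were another constant (0.1), no filter, 2 scalings, other fits, and each library left out.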

Additional observations from a re-analysis of the deposited data

How the results depend on the processing

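The calls of Klf4, Zfp42 and Prdm14 in hybrid cells against EPSCs held under every alternative run, and the count of called genes was 3 to 4 without 1 library. Sox2 against NSCs turned from higher to lower with scaling to a common sum (-0.14 in hybrid cells, -0.19 in EPSCs) and with quantile normalization (-0.051 and -0.12). Nanog against ESCs turned in hybrid cells (-0.014 with the sum, -0.16 with quantiles) and in EPSCs (-0.069 with quantiles), and Klf5 in hybrid cells against EPSCs gave 0.011 with quantiles. Without 1 library, differences of hybrid cells from EPSCs ranged from -0.22 to 0.22 for Pou5f1, -0.15 to 0.12 for Klf5 and -0.11 to 0.082 for Esrrb, and that from ESCs from -0.15 to 0.088 for Prdm14. None of these passed the test, except Sox2 in EPSCs with the sum, and the cause was not tested. With fold thresholds of 2, 1 of the 10 genes passed in hybrid cells against EPSCs and 2 in EPSCs against ESCs. Over all genes these thresholds gave 759 against 211 in hybrid cells and EPSCs, 6355 against 3844 in hybrid cells and NSCs, 2176 against 884 in hybrid cells and ESCs, 1722 against 625 in EPSCs and ESCs, 6256 against 3809 in EPSCs and NSCs, and 5977 against 3650 in ESCs and NSCs. A fit of only EPSC and hybrid libraries called 2811 genes against 5881. Quantile normalization gave Klf2 shares of 56.1% in ESCs and 18.4% in NSCs and a Klf4 share of 54.0% in NSCs, and linear FPKM gave a hybrid position of 1.04.

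The labels state no pairing of replicate numbers across groups. The correlation of same-numbered deviations was 0.28 for hybrid cells and EPSCs, and between -0.11 and 0.07 for the other pairs of groups. Whether same-numbered hybrid and EPSC libraries were handled together was not tested. With the replicate block, 3 of the 10 genes were called in hybrid cells against EPSCs, 8 in hybrid cells against ESCs (Pou5f1 and Klf2 added), 9 in EPSCs against ESCs (Pou5f1 added) and 10 in each comparison with NSCs. Over all tested genes that block called 6060, 8757 and 8250 in the first 3 of these, and 11265 to 11511 against NSCs. In a fit of ESC and NSC libraries alone, chosen after seeing the data, a block on crossed numbers gave 11842 calls over all genes and a block on the numbers as labelled 11815. With 2 libraries of a single line per group, differences between lines cannot be told apart from differences between cell types.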
